A study of Arabidopsis thaliana with 4 samples.

Results

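Plates TA31 to TA36 of a spotted array form a stretch with lower H3K9me2 ratios than the plate blocks on either side. These blocks are TA21 to TA30 before the stretch and TA37 to TA51 after it. Against the whole array the stretch is not low. Its share of high ratios is close to that of the array, and its median lies above that of all other features. Its members are the 576 features whose identifiers carry a plate number from 31 to 36 in the TA series, of 21727 measured features on the array. All 96 wells of each of the 6 plates were measured, so no member was lost to a filter. The plates were chosen because few of their features had high ratios compared with the plates on either side. The ratios below are therefore a description of the members, and no test of them against the rest of the array is given.

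H3K9me2 is histone H3 dimethylated at lysine 9. In Arabidopsis the mark is written by KRYPTONITE and related SUVH histone methyltransferases, and it is tied to non-CG DNA methylation through the methyltransferase CMT3, which binds it. It is known for silent chromatin, above all transposons and the repeats around centromeres, while most expressed genes in chromosome arms carry little of it. Blocks of such chromatin in the arms can have sharp borders to gene-rich DNA.

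The study compared DNA immunoprecipitated with an antibody to H3K9me2 (IP) with input DNA, on 2-colour arrays (ChIP-chip). The material was whole Col-0 seedlings without treatment, 11 days old, kept in liquid MS medium of 0.5 strength at 22 °C with 16 h of light a day. There was 1 group with 2 preparations, numbered I and II in the labels and called replicate 1 and replicate 2 here, each on a pair of arrays with exchanged dyes. The labels give no mutant, no further condition and no separate cultures. Whole seedlings mix many cell types, so a mark on some of the cells and a weaker mark on all of them cannot be told apart. The paired arrays held identical deposited values at all 21727 measured features, so each replicate counts as 1 value and n = 2 throughout.

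All values are deposited log-scale ratios minus the median of all measured features of the same replicate. The log base is not given in the sources used here, so differences are in deposited log units and not in folds. Because exchanging the dyes left the deposited values unchanged, the direction of the ratio is not settled, and features are called higher or lower rather than enriched or depleted. The files give no gene, chromosome position or sequence for a feature, and 0 of the 576 identifiers matched a name in the RefSeq gene table. Wells are therefore named by plate, row letter and column number, and ordered in that way. Whether neighbouring wells hold neighbouring DNA is not stated in the files. A feature that exceeds the median by 1 unit or more in each replicate is called a high-ratio feature. By the mean of the replicates, features are low (under 0.5 units), intermediate (0.5 to 1.5 units) or high (at least 1.5 units).

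Of the 576 members, 378 (65.6%) were low, 113 (19.6%) were intermediate and 85 (14.8%) were high. On the whole array 10.9% were intermediate and 16.4% were high. Of all features outside these plates 72.9% were low, a larger share than among the members. The number of high-ratio features was also 113 (19.6%), of which 28 were intermediate by the mean and 85 were high. The share on the whole array was 19.2%, so as a total these plates held about as many high-ratio features as the array does. No member lay 1 unit or more below the median in each replicate, and on the whole array only 0.069% of features did. The median member lay at 0.12 units in replicate 1 and 0.15 units in replicate 2.

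limma's moderated test of each feature against the array median, fitted on all 21727 features, called 213 members higher and 47 (8.2%) lower at an adjusted p under 0.05 (n = 2). Over the array it called 28.9% higher and 11.7% lower. The plates were chosen on the same ratios, so nothing is read from these shares. The split followed the centring, with 73 higher and 444 lower on the values as deposited and 253 higher and 9 lower after centring on the mode. Of the members called higher, 113 were the intermediate features and 15 were low by the mean.

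**Figure D1:**
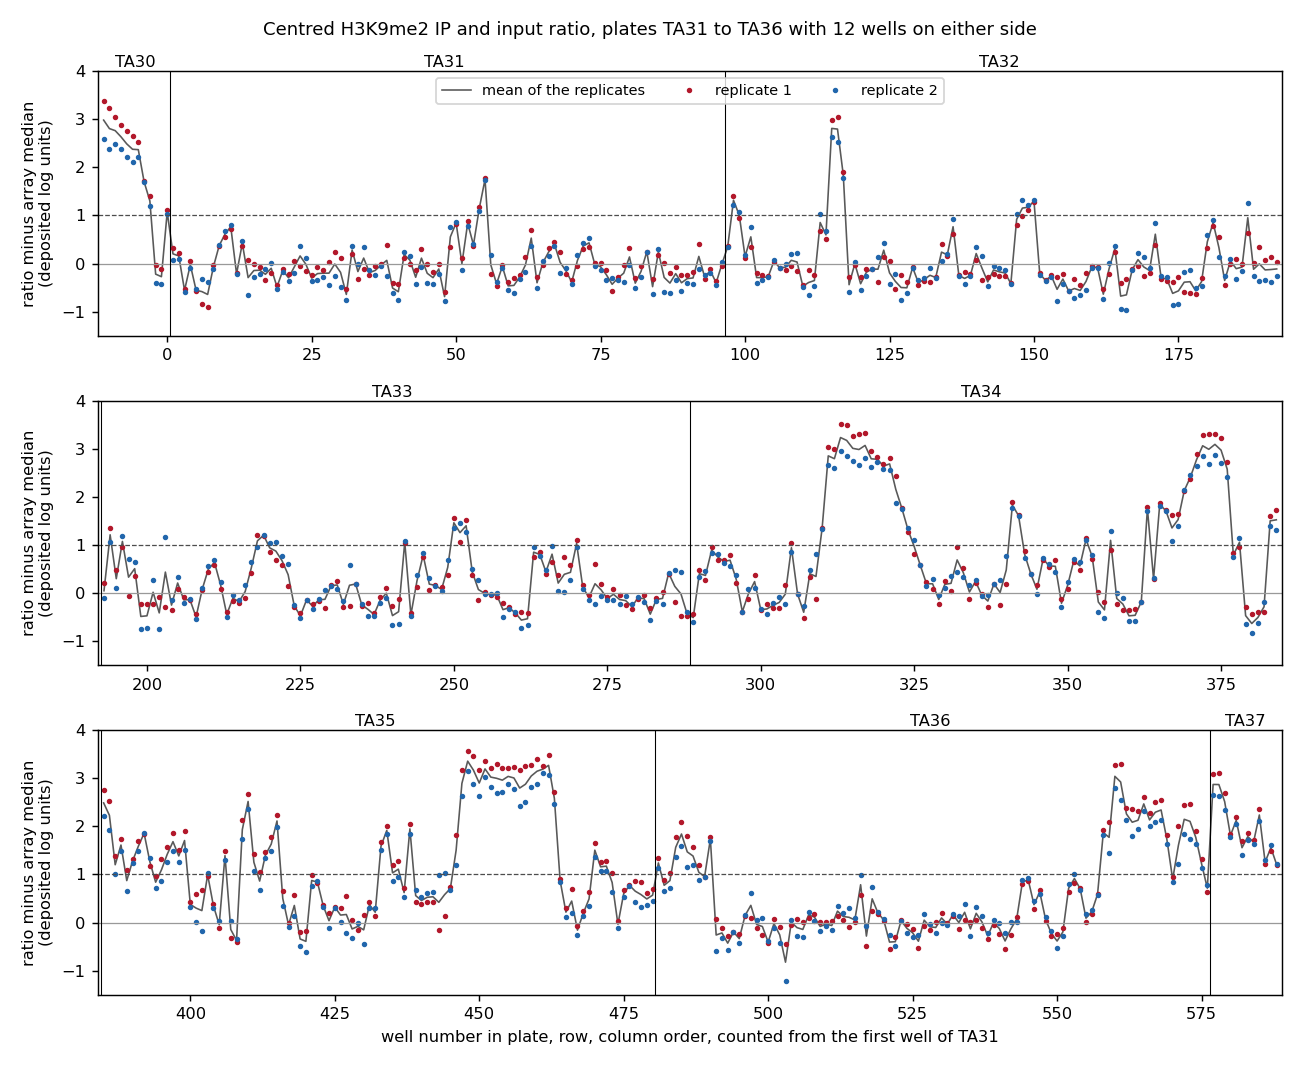
Each point is the centred ratio of a well in replicate 1 or replicate 2, in deposited log units, along the 576 wells of TA31 to TA36 with 12 wells of TA30 and of TA37. The line is the mean of the replicates, the dashed line is the limit of 1 unit and vertical lines are plate borders. Low wells make up 84.7% of TA31 to TA33, and long high runs stand in TA34 and TA35. A low stretch in TA36 precedes another long run and the rise into TA37.

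The high ratios were unevenly spread over the 6 plates. TA31 held 2 high-ratio features (2.1%), TA32 held 6 (6.2%) and TA33 held 6 (6.2%). TA34 held 33 (34.4%), TA35 held 43 (44.8%) and TA36 held 23 (24.0%). The first 3 plates thus had 14 high-ratio features among 288 wells and the last 3 had 99 among 288. Each replicate gave this split, with 5.6% of TA31 to TA33 and 37.5% of TA34 to TA36 past the limit of 1 unit in replicate 1, and 8.0% and 36.5% in replicate 2. The plates just outside were higher than any of the 6, with 55.8% in TA30 (53 of 95 wells) and 89.6% in TA37 (86 of 96 wells).

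Plate medians followed the same course. In replicate 1 they were -0.05 units in TA31, -0.17 in TA32, -0.04 in TA33, 0.61 in TA34, 1.04 in TA35 and 0.10 in TA36. In replicate 2 they were -0.20 units in TA31, -0.14 in TA32, 0.03 in TA33, 0.62 in TA34, 0.87 in TA35 and 0.20 in TA36. TA34 and TA35 lay above the other 4 plates in both replicates. Both stayed under TA30, at 1.24 and 1.19 units, and TA37, at 2.56 and 2.24 units.

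**Figure D2:**
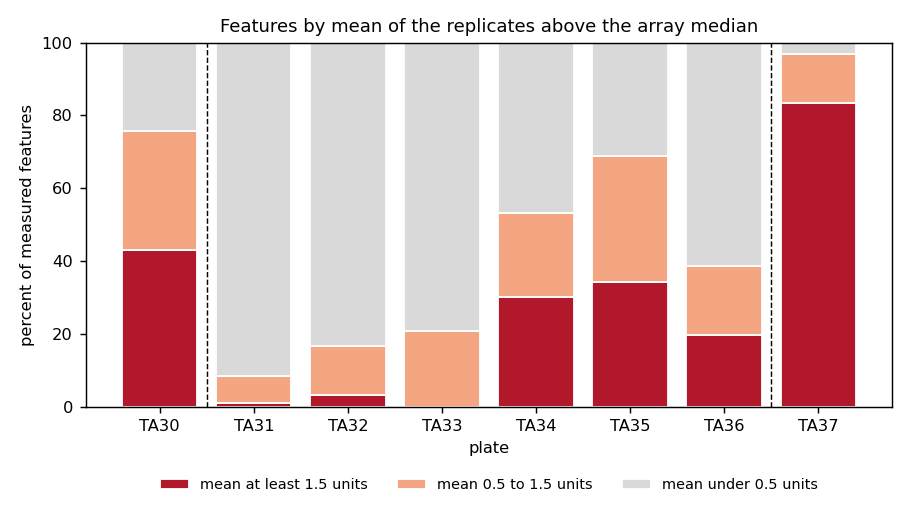
Stacked bars give the percent of measured features of each plate that are high, intermediate or low by the mean of the replicates above the array median, with dashed lines at the ends of TA31 to TA36. High features make up 34.4% of TA35 and none of TA33, against 43.2% of TA30 and 83.3% of TA37, and intermediate features are present in every plate.

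The borders on either side differed in shape. The first 12 wells of TA31 had a median of 0.01 units in replicate 1 and -0.10 in replicate 2 and no high-ratio feature. The last 12 wells of TA30 had medians of 2.58 and 2.16 units, and 10 of them were high-ratio features. On the border itself, TA31A01 lay at 0.20 units in the mean, against 1.07 units in the last well of TA30. From TA30H12 to the next high-ratio well, TA31E06, there were 53 wells without one, and 114 wells of TA31 and TA32 preceded the first run of at least 3 high-ratio wells. At the other end the wells were high on both sides of the border. The last 12 wells of TA36 had medians of 2.13 and 1.69 units with 10 high-ratio features, and the first 12 wells of TA37 had medians of 1.85 and 1.74 units with 12. The rise came 19 wells earlier, at TA36G06, so the last wells of TA36 resemble the block that follows. Only TA36H12, at 0.64 units in replicate 1 and 0.79 in replicate 2, separated the last run of TA36 from a run of 15 wells that begins at TA37A01, at 3.09 and 2.66 units. The step between the adjoining wells was thus larger here than at the border to TA30.

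The wells fell into 4 stretches, delimited after their values were seen. The first, TA31A01 to TA34B09, had 309 wells, of which 84.1% were low and 14 (4.5%) were high-ratio features. The next, TA34B10 to TA36A10, had 181 wells, of which 82 (45.3%) were high-ratio features. The low stretch TA36A11 to TA36G05 had 67 wells and no high-ratio feature. The final 19 wells, TA36G06 to TA36H12, held 17. Median ratios of the 4 stretches were -0.07, 0.99, 0.01 and 2.31 units in replicate 1 and -0.11, 0.89, 0.04 and 1.81 units in replicate 2. The gap between the dense blocks was thus low over its first 309 wells and over a later stretch of 67, with a mixed zone between them.

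High-ratio wells lay mostly side by side. Runs of at least 3 numbered 14 and held 95 of the 113 (84.1%), another 8 formed 4 pairs and 10 stood alone. Among all other features 88.1% of the high-ratio features lay in such runs. In TA31 to TA33 the runs held 6 of 14 (42.9%), and in TA34 to TA36 89 of 99 (89.9%). This share moves with density. The 4 longest runs held 57 wells, or 50.4% of the high-ratio features. They also held 36 of the 39 wells with a mean of at least 2.5 units, called plateau wells here, a limit set after the values were seen.

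The longest run, TA35F02 to TA35G07, covered 18 wells. Replicate 1 ranged from 1.81 to 3.56 units with a median of 3.24, and replicate 2 from 1.20 to 3.15 units with a median of 2.80. Its mean was 2.94 ± 0.34 units (SD between replicates, n = 2), and 17 of its wells were plateau wells. The ratio climbed over 3 wells between the last low well and the first plateau well, and fell back through a single well. The run held both of the highest members. TA35F04 lay at 3.56 units in replicate 1 and 3.15 in replicate 2, and TA35G06 at 3.47 and 3.06 units. Their neighbours in well order were high too, at 2.58 to 3.19 units in the mean.

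The run TA34B10 to TA34C12 had 15 wells, at 1.26 to 3.50 units in replicate 1 (median 2.95) and 1.34 to 2.96 units in replicate 2 (median 2.63). The mean was 2.57 ± 0.23 units (SD, n = 2). Here the sides were unequal in the other sense, with 1 well between the last low well and the plateau on the near side and 5 on the far side. The ratio reached its peak at TA34C01, at 3.23 units in the mean, and sloped down from there.

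The run TA34G05 to TA34H04 had 12 wells, at 1.62 to 3.31 units in replicate 1 (median 2.55) and 1.09 to 2.87 units in replicate 2 (median 2.44). Between the last low well and the first plateau well lay 6 wells. In the mean they fell from 1.84 units at TA34G05 to 1.35 at TA34G07 before they rose. Another 2 wells lay between the last plateau well and the next low well. A lone high-ratio well, TA34G03, at 1.79 and 1.71 units, stood just before the run. After those 2 wells, the next 4, TA34H07 to TA34H10, had a mean of -0.37 units in replicate 1 and -0.57 in replicate 2. These 4 were chosen after their values were seen. limma called 3 of them lower, against 8.2% of all members and 11.7% of the array. Calls of this kind moved with the centring, so nothing is read from the count. The next run, TA34H11 to TA35A04 with 6 wells, began at once at 1.60 and 1.40 units, and it crossed the border between the plates. A high run and wells under the array median thus lay within a few wells of each other, in both replicates.

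The run TA36G06 to TA36H05 had 12 wells, at 1.82 to 3.29 units in replicate 1 (median 2.37) and 1.45 to 2.80 units in replicate 2 (median 2.04). It had only 2 plateau wells, TA36G08 and TA36G09, near its start. It ran on through TA36H06, at 0.90 units in the mean, into the run TA36H07 to TA36H11 at 1.77 ± 0.36 units (SD, n = 2). Its mean, 2.25 ± 0.28 units (SD, n = 2), was the lowest of the 4 longest runs.

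**Figure D3:**
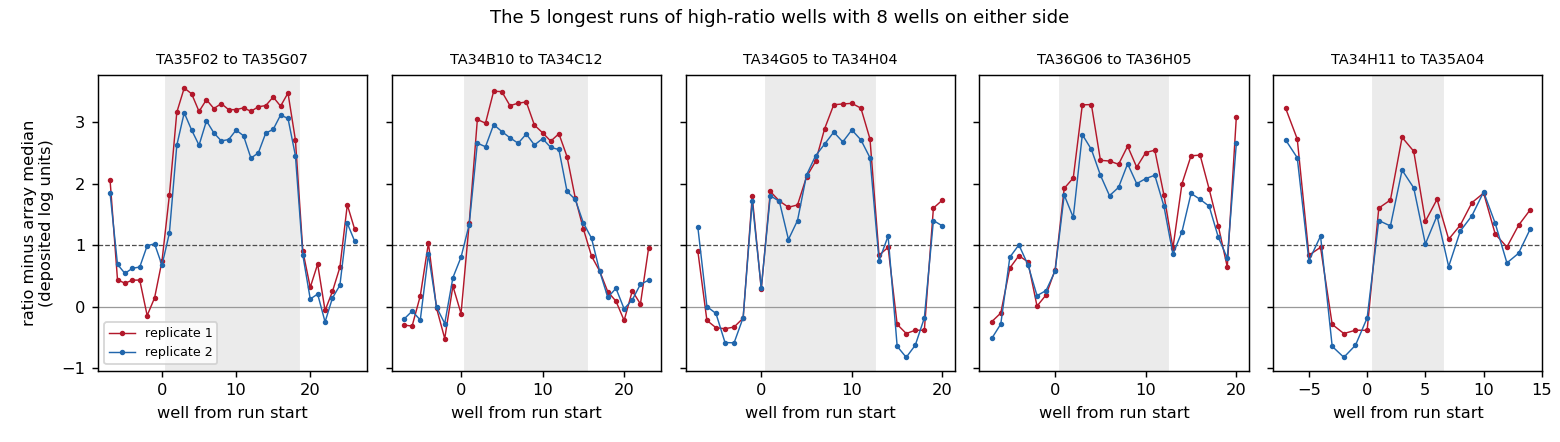
The 5 longest runs of high-ratio wells, shaded, are drawn with 8 wells on either side. Points are single wells in replicate 1 and replicate 2, in deposited log units above the array median, and the dashed line is the limit of 1 unit. The run in TA35 has a flat top near 3 units and steep sides, TA34B10 to TA34C12 falls off over several wells, and replicate 1 is the higher replicate on most of the tops.

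The 8 remaining runs had 3 or 4 wells. Of these, 5 lay in TA35, among them TA35C01 to TA35C03, with a mean of 1.90 units, and TA35C05 to TA35C07, at 1.72 units, separated by TA35C04 at 0.86 units. The only one in TA36, TA36A04 to TA36A07, had a mean of 1.56 units. The plates TA31 to TA33 held only 2 runs of 3. One of them, TA32B07 to TA32B09, lay at 2.98, 3.06 and 1.90 units in replicate 1 and 2.64, 2.53 and 1.78 units in replicate 2. It was as high as the runs of TA34 but much shorter, and stood between TA32B06 at 0.60 units and TA32B10 at -0.44 units. The other, TA33E10 to TA33E12, reached a mean of only 1.37 units. These shorter runs were singled out after their values were seen.

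The 10 lone high-ratio wells had means from 1.06 to 1.95 units, with a median of 1.28, a range that overlaps the means of the shorter runs. Of them, 4 had low wells on both sides. The others lay beside at least 1 intermediate well. The limit of 1 unit cut through a continuous range of values. The 3 members just inside had lower replicates of 1.02, 1.03 and 1.06 units, and the 3 just outside 0.96, 0.97 and 0.98 units.

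Most steps between neighbouring wells were small, and a few were large. Of 575 neighbouring pairs, 43 differed by at least 1 unit in the mean and 35 of these by at least 1 unit in both replicates, while the median step was 0.28 units. The largest was the rise from TA35B12, at -0.37 units, to TA35C01, at 1.93 units in the mean, by 2.53 units in replicate 1 and 2.08 in replicate 2. Both sides of the short run in TA32 followed, with 2.47 and 1.96 units up into TA32B07 in the replicates, and drops to TA32B10 of -2.18 and -2.38 units. From TA36A10 to TA36A11 the ratio changed by -1.69 and -2.29 units, which ends the mixed zone. From TA34G02 to TA34G03 it changed by 1.98 and 1.89 units. All 5 steps had the same direction in both replicates.

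The intermediate members differed in what lay beside them. Of the 113, 29 had a high well beside them, 62 had an intermediate but no high well, and 22 had only low wells on both sides. In TA31 to TA33, 2 of 40 lay beside a high well and 15 stood between low wells. In TA34 to TA36, 27 of 73 lay beside a high well and 7 stood between low wells. This contrast moves with density, since TA31 to TA33 held 4 high wells and TA34 to TA36 held 81. The 113 intermediate members had medians of 0.86 units in replicate 1 and 0.87 in replicate 2. TA35 had the largest share, 34.4% of its wells, and its low wells had a median of 0.28 units in replicate 1 and 0.02 in replicate 2, against -0.07 and -0.23 units in TA31.

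The low members formed 31 runs of at least 3 wells under 0.5 units. The longest were TA31A12 to TA31D12 with 37 wells, TA31F04 to TA32A01 with 34, TA36D01 to TA36F03 with 27, TA36A11 to TA36C11 with 25 and TA33G07 to TA34A03 with 21. Their mean ratios lay between -0.11 and -0.03 units in replicate 1 and between -0.21 and -0.0037 units in replicate 2, close to the median of the array. Of the 144 wells in them, 12 were called lower by limma, against 8.2% of all members and 11.7% of the array. These calls moved with the centring, so nothing is read from the count. The lowest members were TA36B11, at -0.44 units in replicate 1 and -1.20 in replicate 2, and TA31D12, at -0.59 and -0.79 units. TA36B11 thus owed its rank mainly to replicate 2, while TA31D12 was low in both.

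Neighbouring wells carried similar ratios, here as on the rest of the array. Pearson's r between each well and its successor was 0.84 in replicate 1 and 0.79 in replicate 2 (575 pairs, a description across wells of the same arrays). In the mean of the replicates it was 0.83, against 0.89 among all other features. It was 0.54 in TA31 to TA33 and 0.85 in TA34 to TA36. Over the 6 plates r fell off with distance to 0.72 for the well 2 further on, 0.46 for 5 and 0.27 for 10. A well and the one directly below it in the same plate column, 12 wells further on in order, correlated at 0.23 (504 pairs). The likeness thus went with the order along rows more than with plate columns. By column, the share of high-ratio features ran from 14.6% to 27.1%, with no column empty of them. By row letter it ran from 0.0% in row D to 31.9% in row G. Row D held none in any of the 6 plates, and the 23 of row G came from TA34 (9), TA35 (7) and TA36 (7). The part of row position in the ratios was not tested.

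The replicates ordered the members alike, with Pearson's r of 0.95 and Spearman's rho of 0.88 across the 576 features, which are not independent. Past the limit of 1 unit were 113 members in both replicates, 11 in replicate 1 only and 15 in replicate 2 only. The 11 still had 0.64 to 0.96 units in replicate 2. The 15 had -0.28 to 0.98 units in replicate 1, with a median of 0.83. The well at -0.28 units, TA33A11, had the largest difference between the replicates of all members, with 1.16 units in replicate 2. It was still called higher by limma's moderated test (adjusted p 0.0413), although its replicates lay on opposite sides of the median. The fit used the same SD for every feature, so a call depends on the mean alone. The neighbours of TA33A11 lay at -0.41 and -0.25 units in the mean.

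The high members were higher in replicate 1 at 82 of 85 wells, with medians of 2.53 units in replicate 1 and 2.14 in replicate 2. Replicate 2 minus replicate 1 had a median of -0.38 units among them. Among high features outside these plates it was -0.48 units, with 3350 of 3489 higher in replicate 1. The intermediate and low members differed by a median of -0.02 and -0.05 units. The scale of the tops thus depended on the replicate, here as on the rest of the array.

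**Figure D4:**
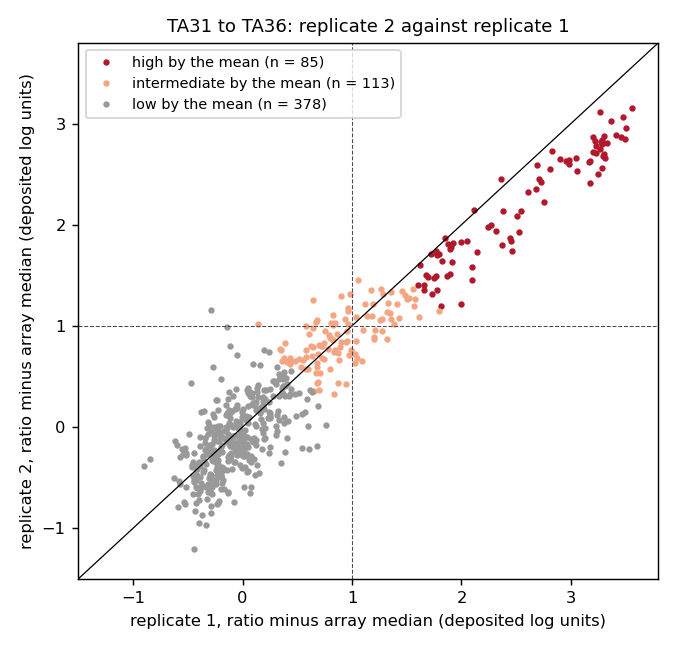
Each point is 1 of the 576 members, with the centred ratio of replicate 1 on the horizontal axis and of replicate 2 on the vertical axis, in deposited log units. Colours give the class by the mean, dashed lines the limit of 1 unit and the solid line equality. High members lie below the line of equality at 82 of 85 wells, and few points fall past the limit on 1 axis only.

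Set against the blocks on either side, TA31 to TA36 differed by construction in how many features were high, with 19.6% high-ratio features, against 66.4% in TA21 to TA30 and 87.0% in TA37 to TA51. Where features were high, the median of their mean ratio was 2.34 units in TA31 to TA36, against 2.41 units in TA21 to TA30 and 2.73 units in TA37 to TA51. The longest run of high-ratio wells was 18, against 57 in TA21 to TA30 and 131 in TA37 to TA51. Longer runs go with a denser block by construction, so these lengths were not compared further.

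Another block with low, intermediate and high wells side by side is TA52 to TA66. TA31 to TA36 had 19.6% intermediate features and a longest run of 18 wells, against 25.8% and 28 wells in TA52 to TA66. Its high features had a median mean ratio of 2.34 units, against 2.28 units there. Of its high-ratio features 8.8% stood alone, with 28.6% in TA31 to TA33 and 6.1% in TA34 to TA36, against 8.1% in TA52 to TA66, 8.2% of those outside TA31 to TA36, 29.2% in the sparser block TA01 to TA20 and 31.6% in TA67 to TA99. This share also moves with density. All these blocks were delimited with their values known, so the differences carry no test.

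**Figure D5:**
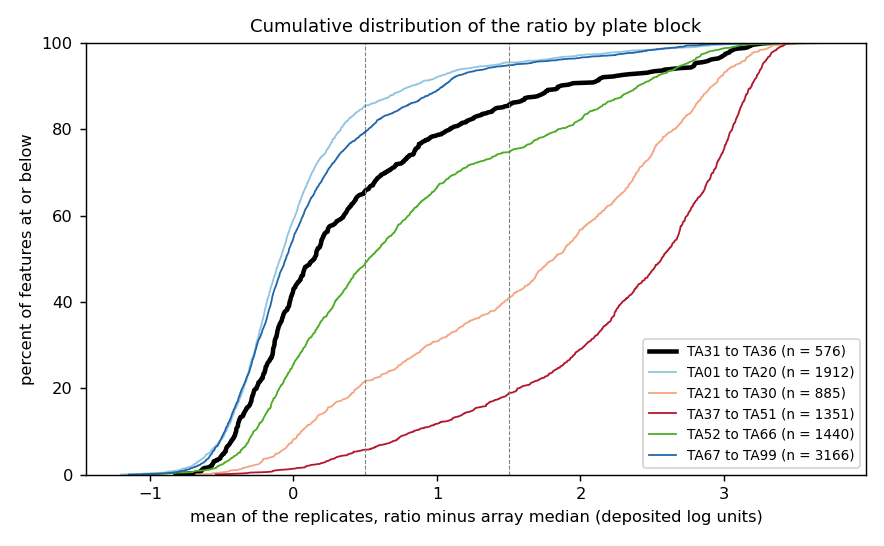
Lines give the cumulative percent of features at or below each mean ratio, in deposited log units above the array median, for TA31 to TA36 (black) and the 5 other blocks of the TA series, with dashed lines at 0.5 and 1.5 units. TA31 to TA36 runs between TA67 to TA99 and TA52 to TA66, with 65.6% of its features under 0.5 units.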

How the data were processed

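H3K9me2 IP and input DNA were compared on 4 arrays, a dye-exchanged pair for each of 2 preparations in 1 group. The authors deposited 1 log-scale ratio for each feature of an array. The DNA had been amplified before direct labelling with the dyes, per the labels' protocols. For background correction, normalization, log base and ratio direction, a statement is not given in the sources used here. Of 21800 features, 73 were empty. Deposited medians were -1.39 in replicate 1 and -1.15 in replicate 2, so each replicate was centred on its median over 21727 features. Intensities were not used here, so nothing is known of signal over background, and precision is limited by the number of arrays. The labels do not name separate cultures, so the spread may be technical.

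limma 3.58.1 (R 4.3.3) tested the mean of the replicates against 0 (two-sided), and p-values were adjusted over all features by Benjamini-Hochberg. The fit gave every feature a shared SD of 0.26 units, so a call amounts to a distance of at least 0.42 units from the median. The fit was tested on simulated data with independent normal noise and the same shift in both replicates. That checks the code only, not whether the noise of these arrays has this form. Runs, classes and correlations were computed with Python 3.11.15, NumPy 2.4.6 and pandas 2.3.3, and the mode as the peak of a Gaussian kernel density (SciPy 1.17.1). A run is an unbroken series of wells, ended at the edges of TA31 to TA36.

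Named single features were the 2 highest, the 2 lowest and the member with the largest replicate difference. Other wells were named as ends of the longest runs or of the 5 largest steps, and the shorter runs, single wells between or beside runs and the dip in TA34 were named after their values were seen. The members, limits and lists were chosen with earlier results of these data known. Alternatives changed the centring, the normalization, the thresholds, the prior or the run rule, or left out a replicate.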

Additional observations from a re-analysis of the deposited data

How the results depend on the processing

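Of 49 alternatives, 31 kept their value within 1.5 times the reported count, or within the spread between replicates, and 18 did not. Some outcomes were fixed in advance, such as the correlation of a well with the next, which centring on the mode cannot change. The tally is therefore no measure of stability. Members called higher by limma numbered 73 without centring and 132 with treat against 0.5 units, against 213 as reported. Members called lower, 47 as reported, numbered 444 without centring, 9 with centring on the mode, 72 with quantile normalization, 19 at an adjusted p under 0.01 and 77 with a trended and robust prior. With treat they numbered 0, and 1 at its unadjusted p under 0.05. High-ratio features numbered 41 without centring, 180 at a limit of 0.5 units, 73 at 1.5 units and 0 with the sign turned, against 113. Runs numbered 6 at a limit of 1.5 units and 6 with at least 5 wells, against 14. The longest had 32 wells by the limma call, against 18. The median member lay at 0.33 units with centring on the mode, against 0.15. With either replicate left out there were 124 to 128 high-ratio features, 13 to 16 runs, a longest run of 18 wells, 107 to 132 intermediate and 73 to 92 high features. The median was then 0.12 to 0.15 units and the correlation of a well with the next 0.79 to 0.84. The cause of these changes was not tested beyond what each setting changes by construction. No limma fit was made on a single replicate, which leaves no residual degrees of freedom. No paired analysis was possible because there is a single group.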
